A study of Mus musculus with 4 samples.

Results

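The VLDL receptor gene Vldlr and 7 genes of LDL-receptor-related proteins (Lrp1, Lrp2, Lrp4, Lrp5, Lrp6, Lrp8 and Lrp10) were described in mouse embryonic stem cells (mESCs) that carried wild-type CTCF or CTCF mutated at T668. These 8 genes were found by symbol among the 37620 gene rows of the deposited count table, and all 8 passed the filter on low counts that left 16264 genes. Vldlr was chosen by its measured counts, which were higher in the mutant line, so its difference between the lines is given as a description with no test. The other 7 were listed as its relatives.

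RNA-seq was compared between 2 WT_CTCF and 2 MUT_CTCF libraries to ask whether loss of an O-GlcNAc site of CTCF, the chromatin protein that anchors loops, alters gene expression. Both lines were derived from CTCF-EGFP-AID mESCs, in which auxin degrades the tagged endogenous CTCF, and both were given auxin. They differ in the CTCF supplied from a vector, which was wild-type in WT_CTCF and lacked the O-GlcNAc site T668 in MUT_CTCF. Each line was a picked clone whose exogenous CTCF was close to the endogenous level, so the mutation and the clone cannot be told apart. The cells grew on gelatin in medium with serum and LIF, and the study describes 2 biological replicates per line without saying whether they were separate cultures, so p-values may measure only the spread between these libraries.

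The LDL receptor family consists of cell surface receptors that bind ligands through cysteine-rich repeats and carry them into the cell by endocytosis. Several members also signal: VLDLR and LRP8 (the apolipoprotein E receptor APOER2) receive reelin, LRP5 and LRP6 are co-receptors of WNT ligands, and LRP4 receives agrin at the neuromuscular junction. In early embryos the family is known for maternal lipid and vitamin uptake by LRP2 (megalin) in visceral endoderm and for WNT signalling through LRP5 and LRP6.

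The libraries held 40524694 to 40977464 counts each, with TMM factors of 0.994 to 1.01. A gene with 0 reads could still hold up to 3 counts, or 0.0732 to 0.0740 CPM (counts scaled by library size), a limit that covers counting error only. Ctcf had 18273 and 18625 counts in WT_CTCF and 18954 and 19233 in MUT_CTCF, with endogenous and exogenous transcripts not separated. The mESC markers summed to 5937 to 6027 CPM in each of the 4 libraries. Markers of primitive endoderm summed to 22.6 and 23.1 CPM in WT_CTCF and to 23.6 and 29.6 in MUT_CTCF. Fibroblast markers, with Lum and S100a4 at 0 reads, summed to 49.2 and 50.1 CPM and to 51.1 and 58.2 CPM, respectively. Neural markers, which were mostly Tubb3 and had Dcx at 0 reads, summed to 400.0 and 400.7 against 361.0 and 368.4 CPM, and of the 3 tested Tubb3 fell (log2 fold change -0.19, edgeR adjusted p = 5.01e-05) while Nes (0.11) and Pax6 (0.45) were not called. Mesendoderm markers summed to 31.7 in both WT_CTCF libraries and 29.7 in both MUT_CTCF libraries. Of 9 tested mESC markers, 3 were on the higher side, with a median log2 fold change of -0.035. Pou5f1 was at -0.071 and Zfp42 at -0.060, neither called. Of 6 tested fibroblast markers, 4 were on the higher side. Col3a1 was at -1.52 (26 and 23 against 12 and 5 counts) and Col1a2 at -0.19, neither called. The other markers called were Sox2, an mESC marker (0.095, edgeR adjusted p = 0.0358), and Fbln2, a fibroblast marker (0.72, edgeR adjusted p = 0.0261), and the calls of Tubb3, Sox2 and Fbln2 were lost without MUT_CTCF replicate 1 or 2. Sox2 was also lost without either WT_CTCF library and Fbln2 without WT_CTCF replicate 2, and their adjusted p over the alternatives reached 0.2 for Tubb3, 0.387 for Sox2 and 0.518 for Fbln2. With 2 libraries in each line, the smallest two-sided p of an exact permutation test is 0.333, and the tests given therefore depend on the variation that edgeR pools over genes.

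The promoters of Vldlr and Lrp8 are shown because these are the reelin receptors and the least expressed members. Lrp8 was also the member closest to Vldlr over the 4 libraries, which the choice of Vldlr for its rise favours. Each promoter is the 250 bases before a RefSeq start site in GRCm38.p6, a later build than the mm9 used for the counts. For Vldlr the window is chr19:27216234-27216483 on the plus strand, with 41.6% GC and 5 CpG, and for Lrp8 it is chr4:107802635-107802884 on the plus strand, with 62.4% GC and 18 CpG. These values differ between start sites of the same gene. The second Vldlr window, not shown, had 66.4% GC and 18 CpG. The other Lrp8 windows had 52.8% and 53.6% GC, with 5 and 2 CpG. Capitals mark the only match to the motifs searched in the windows shown.
Vldlr: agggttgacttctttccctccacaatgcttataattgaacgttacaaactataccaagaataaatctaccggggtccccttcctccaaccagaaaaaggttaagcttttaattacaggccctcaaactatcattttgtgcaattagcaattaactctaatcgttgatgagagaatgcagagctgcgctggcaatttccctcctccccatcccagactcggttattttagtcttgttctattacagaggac
Lrp8: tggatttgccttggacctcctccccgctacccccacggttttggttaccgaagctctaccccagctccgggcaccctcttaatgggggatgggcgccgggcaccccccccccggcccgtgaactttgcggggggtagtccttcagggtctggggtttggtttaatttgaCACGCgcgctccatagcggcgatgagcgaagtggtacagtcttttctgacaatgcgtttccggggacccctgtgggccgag

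In RefSeq, promoters were matched for 5 of the 8 members, namely Vldlr (2 start sites), Lrp1, Lrp2, Lrp8 (3 start sites) and Lrp10, while Lrp4, Lrp5 and Lrp6 are named only. 4 sets of letters were searched on both strands, the hypoxia response cores ACGTG and GCGTG, the sterol regulatory element TCACNCCAC and the CTCF core GGNGGCAG. Of 32851 promoter windows of 250 bases, 16.6% held ACGTG, 28.2% GCGTG, 1.05% TCACNCCAC and 9.93% GGNGGCAG. Neither Vldlr window held any of them. The Lrp8 window shown held GCGTG once, on the minus strand at -81 from the start site, and the second Lrp8 window held GGNGGCAG at -145. The Lrp10 window held ACGTG once, GCGTG at 2 places and GGNGGCAG once, and the Lrp1 and Lrp2 windows held none. A match describes these letters and not a binding site.

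Levels between genes were compared as CPM per kilobase of exon. Lrp10, a small receptor of the Golgi and endosomes, and Lrp5 were the highest, at 16.9 (range over the 4 libraries 16.3 to 18.3) and 16.2 (15.1 to 16.8) CPM per kilobase. Their ranges overlapped, and Lrp10 was above Lrp5 in 3 of 4 libraries. Lrp1, the large receptor of proteases, protease inhibitors and lipoprotein remnants, followed at 11.6 CPM per kilobase (10.4 to 13.1). The middle of the order held Lrp6 at 4.09 (3.91 to 4.28), Lrp2 at 3.48 (3.17 to 3.78) and Lrp4 at 2.52 CPM per kilobase (2.36 to 2.95). The reelin receptors stood last, with Lrp8 at 0.630 (0.512 to 0.740) and Vldlr at 0.189 (0.0707 to 0.289). Apart from Lrp10 and Lrp5, no neighbours in this order had overlapping ranges.

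The 8 members spanned a wide range of the transcriptome, from the 8.19th percentile of the tested genes by per-length level for Vldlr to the 76.7th for Lrp10. As a share of the summed per-length level of the 8 genes, Vldlr was 0.135 and 0.264% in WT_CTCF replicates 1 and 2, and 0.454 and 0.484% in those of MUT_CTCF. The summed level lay between 52.4 and 59.6 CPM per kilobase. Vldlr thus remained the lowest member in every library, including those where it was highest. With the length of the longest transcript in place of all exons, the order was the same, with Vldlr at 0.239 and Lrp8 at 1.00 CPM per kilobase.

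**Figure D1:**
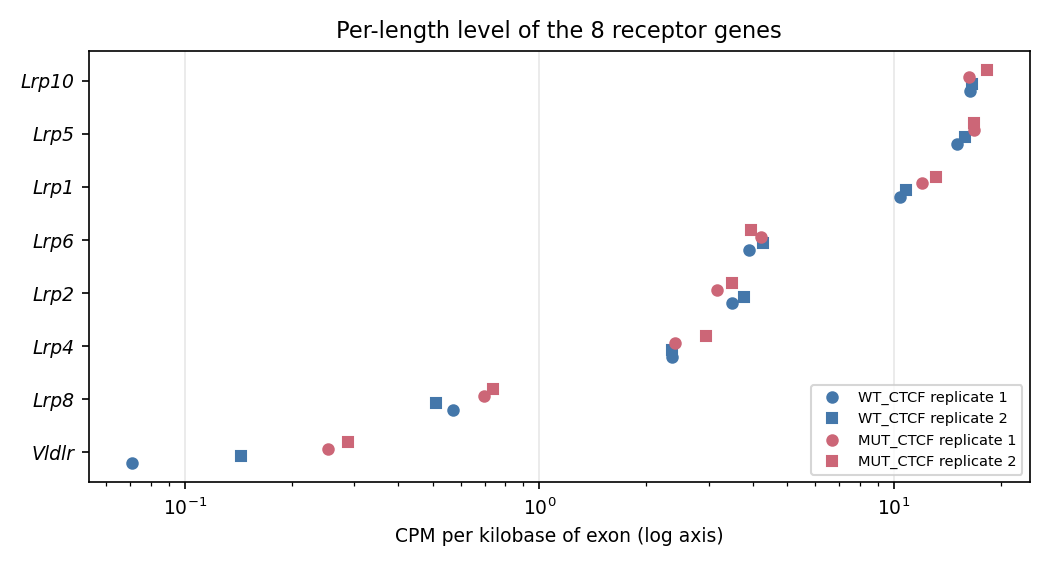
Per-length level of each receptor gene (CPM per kilobase of exon, log axis) in the 2 WT_CTCF and 2 MUT_CTCF libraries, each point being 1 library. Lrp10, Lrp5 and Lrp1 lie above 10 in every library, and Vldlr lies below 0.3 in every library.

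Vldlr (ENSMUSG00000024924, chr19:27290974-27328721 of mm9, plus strand) takes up lipoproteins rich in triglyceride and binds reelin. It had 29 counts in WT_CTCF replicate 1 and 59 in WT_CTCF replicate 2, and 105 and 118 counts in MUT_CTCF replicates 1 and 2. Both MUT_CTCF libraries were above both WT_CTCF libraries, and WT_CTCF replicate 1 was the lowest. The 95% counting intervals (exact Poisson, counting error only) were 19.4 to 41.6 and 44.9 to 76.1 in WT_CTCF, and 85.9 to 127.1 and 97.7 to 141.3 in MUT_CTCF, so that the WT_CTCF libraries also stood apart from each other.

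In normalized counts, the mean of Vldlr was 44.1 ± 21.3 in the WT_CTCF line and 111.3 ± 10.2 in the MUT_CTCF line (SD, n = 2 each). The log2 difference, MUT_CTCF over WT_CTCF, was 1.33, or 2.52-fold. Leaving out WT_CTCF replicate 1 gave 0.91 and leaving out WT_CTCF replicate 2 gave 1.93. The size therefore depended on which WT_CTCF library was kept. In bulk RNA, fewer cells of a type and less RNA per cell cannot be told apart. Over all tested genes, 0.947% were higher and 0.357% lower in MUT_CTCF by the criterion of the study (fold change above 2 and an unadjusted p under 0.05), and 0 of the 7 other members met it in either direction.

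**Figure D2:**
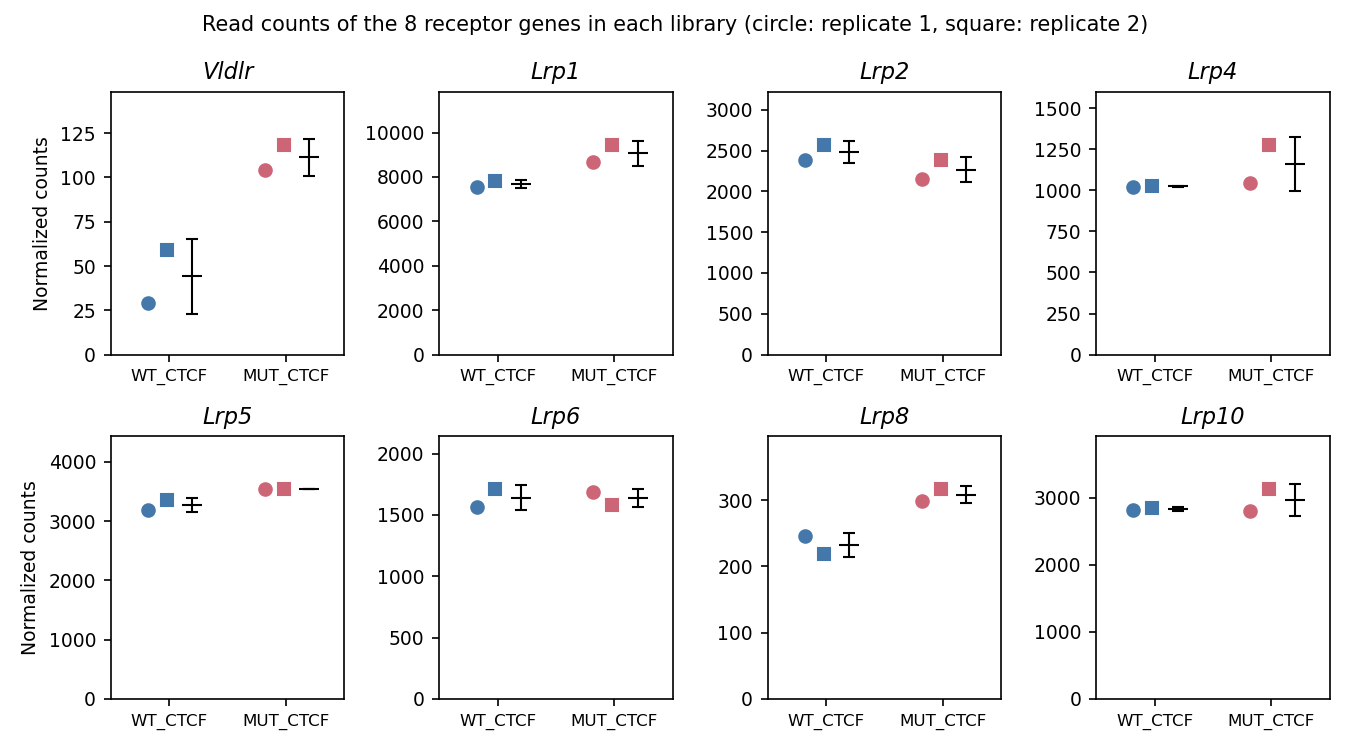
Normalized counts (counts scaled to the mean library) of the 8 receptor genes in WT_CTCF (blue) and MUT_CTCF (red) libraries, with the mean ± SD of each line (n = 2) in black and every axis starting at 0. Vldlr goes from 29.0 and 59.1 to 104.1 and 118.6, while Lrp6 overlaps between the lines.

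Lrp8, the other reelin receptor (ENSMUSG00000028613, chr4:107474866-107549445), had 245 and 219 counts in WT_CTCF and 302 and 316 in MUT_CTCF. Both MUT_CTCF libraries were above both WT_CTCF libraries. Its log2 fold change was 0.41 (standard error 0.155, 95% interval 0.10 to 0.72), which did not pass after adjustment over all tested genes (edgeR adjusted p = 0.158, with 0.13 to 0.525 over the alternatives that gave one).

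Lrp1 (ENSMUSG00000040249, chr10:126975217-127058204, minus strand) was the 1 tested member that passed. It had 7533 and 7805 counts in WT_CTCF and 8743 and 9414 in MUT_CTCF, without overlap. Normalized counts rose from 7684 ± 196.8 to 9063 ± 559.9 (SD, n = 2 each), a log2 fold change of 0.24 (standard error 0.038, 95% interval 0.16 to 0.31, edgeR adjusted p = 1.76e-05). The change was small beside that of Vldlr and rested on deep counts. The call was lost without MUT_CTCF replicate 1 (log2 fold change 0.30, edgeR adjusted p = 0.0887) and without MUT_CTCF replicate 2 (0.17, edgeR adjusted p = 0.288), where 1 library stands for the line, and without the filter on low counts (0.24, edgeR adjusted p = 0.167). Over all alternatives the adjusted p ran from 7.29e-09 to 0.288.

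The WNT co-receptors differed little. Lrp5 (ENSMUSG00000024913, chr19:3584825-3686564) had 3187 and 3348 counts in WT_CTCF and 3572 and 3530 in MUT_CTCF. The MUT_CTCF libraries were the higher ones, with a log2 fold change of 0.11 (95% interval 0.01 to 0.21, edgeR adjusted p = 0.251). Lrp6 (ENSMUSG00000030201, chr6:134396494-134516983) had 1566 and 1710 counts in WT_CTCF and 1704 and 1577 in MUT_CTCF. These overlapped, with a log2 fold change of -0.004 (95% interval -0.14 to 0.14, edgeR adjusted p = 0.986), whose sign turned with scaling by library size alone (0.009) and without single libraries (-0.066 to 0.062).

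Lrp2 (ENSMUSG00000027070, chr2:69262397-69424122), or megalin, had 2384 and 2568 counts in WT_CTCF and 2176 and 2367 in MUT_CTCF. It was the 1 member with both MUT_CTCF libraries below both WT_CTCF libraries, and only narrowly. The log2 fold change was -0.13 (95% interval -0.25 to -0.01, edgeR adjusted p = 0.288, not called). Leaving out MUT_CTCF replicate 1 gave -0.06 and leaving out MUT_CTCF replicate 2 gave -0.20. Of 9 tested primitive endoderm markers, none passed in edgeR (2 higher and 0 lower at an unadjusted p under 0.05, beside 7.61% and 7.65% of all tested genes). The 2 were Gata6 (57 and 50 against 99 and 108 counts, log2 fold change 0.945, edgeR adjusted p = 0.0733) and Sox17. Sox17 had 57 and 46 against 66 and 108 counts (0.751, edgeR adjusted p = 0.259). Dab2 (-0.21) and Cubn (-0.10) were on the lower side. DESeq2 gave none of the 9 an adjusted p, so it could not call any. On the higher side were 7 of the 9, beside 50.8% of all tested genes. The part of other cell types in the Lrp2 counts was not tested.

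Lrp4 (ENSMUSG00000027253, chr2:91297668-91354058), the agrin receptor, had 1021 and 1024 counts in WT_CTCF and 1056 and 1273 in MUT_CTCF. MUT_CTCF replicate 2 stood above the other 3 libraries, which lay close together. The log2 fold change of 0.18 (95% interval 0.01 to 0.35, edgeR adjusted p = 0.294) was 0.03 without that library and 0.32 without MUT_CTCF replicate 1. Lrp10 (ENSMUSG00000022175, chr14:55083001-55090334) had 2806 and 2845 counts in WT_CTCF and 2826 and 3119 in MUT_CTCF, again with MUT_CTCF replicate 2 the highest. The lines overlapped after scaling, with a log2 fold change of 0.07 (95% interval -0.04 to 0.18, edgeR adjusted p = 0.631), which was -0.016 without MUT_CTCF replicate 2.

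Counted over the 7 members other than Vldlr, 1 rose (Lrp1) and 0 fell at an edgeR adjusted p under 0.05, beside 1.56% of all tested genes higher and 1.61% lower. At an unadjusted p under 0.05, 4 of the 7 were higher and 1 lower, beside 7.61% and 7.65% of all tested genes. DESeq2 also called 1 higher and 0 lower, and gave Lrp8 no adjusted p. The MUT_CTCF libraries both exceeded the higher WT_CTCF library for 4 of the 7 (Lrp1, Lrp4, Lrp5 and Lrp8), and both were under the lower one for 1 (Lrp2), beside 22.3% and 22.4% of all tested genes, respectively. No exon position of any member is shared with another annotated gene.

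**Figure D3:**
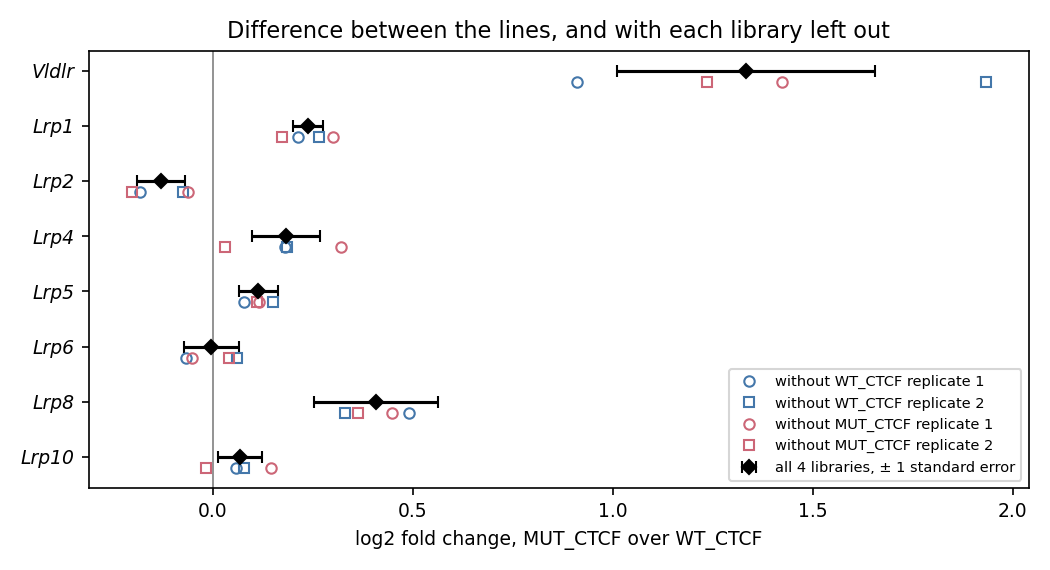
Log2 fold change of MUT_CTCF over WT_CTCF for each member, with all 4 libraries (black diamond, ± 1 standard error) and with 1 library left out (open symbols). Vldlr, chosen for its rise, spans 0.91 to 1.93, Lrp1 spans 0.17 to 0.30, and Lrp6 and Lrp10 cross 0. The bar of Vldlr rests on variation pooled over genes and is no test of its rise.

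The genes most like Vldlr were sought among 11592 tested genes with a mean of at least 100 normalized counts, by Euclidean distance of the log2 CPM centred on the gene mean, over only 4 libraries. Vldlr stood at -1.18 and -0.20 in WT_CTCF and 0.60 and 0.78 in MUT_CTCF on this scale. Since Vldlr was chosen for being higher in MUT_CTCF, the nearest genes share this by construction. The 5 nearest were Car12, a cell surface carbonic anhydrase, at a distance of 0.502, Anxa2, a membrane-binding annexin, at 0.546, Krt19, an epithelial keratin, at 0.612, Aire, a transcriptional regulator known from the thymus, at 0.632, and Lrrc16b at 0.637.

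Each of the 5 was lowest in WT_CTCF replicate 1 and highest in MUT_CTCF replicate 2, as Vldlr was. The choice by distance over these same libraries favours such a shared order. Car12 had 87 and 120 counts in WT_CTCF and 205 and 221 in MUT_CTCF, and Anxa2 had 220 and 256 against 603 and 618. Krt19 had 124 and 141 against 270 and 323, Aire 130 and 164 against 265 and 302, and Lrrc16b 74 and 102 against 160 and 162. Their log2 differences were 0.87 to 1.35, beside 1.33 for Vldlr. Anxa2 shares 98 exon bases with Gm16144 and Aire shares 67 with Dnmt3l, each on the opposite strand. How reads at these positions were counted is not given, so they may be missing or assigned to the wrong gene. Among the members, Lrp8 was the nearest to Vldlr at 1.26 and Lrp2 the farthest at 1.63. Every member was farther than the 5 genes above. The choice of Vldlr for its rise favours members that were higher in MUT_CTCF here too.

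**Figure D4:**
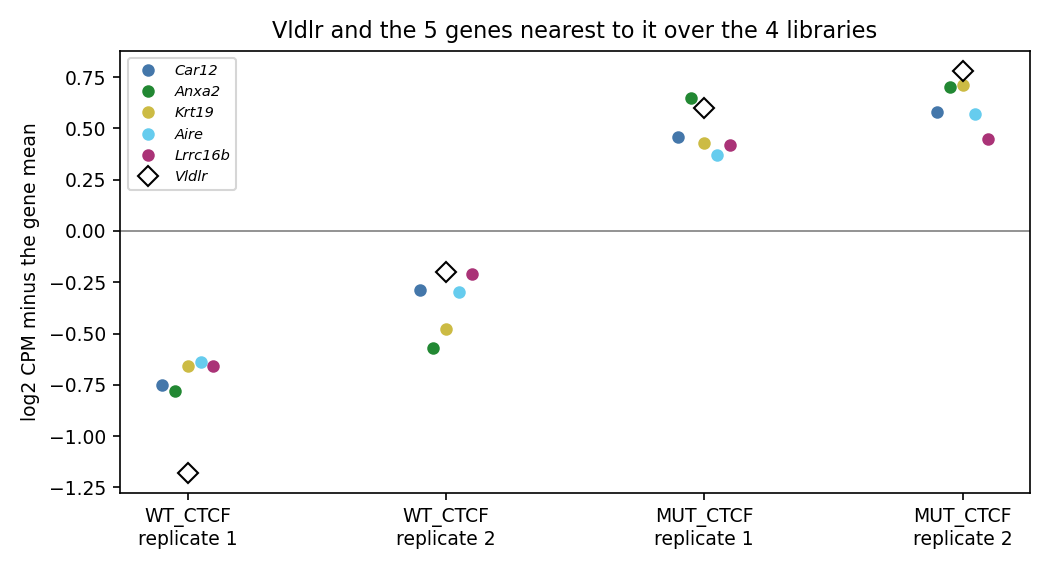
Log2 CPM of Vldlr (open diamond) and of the 5 genes nearest to it, each minus its own mean over the 4 libraries, by library. All 6 genes lie below 0 in both WT_CTCF libraries and above 0 in both MUT_CTCF libraries, with Vldlr lowest of them in WT_CTCF replicate 1 at -1.18.

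The genes around the receptors were examined next. Within 500 kb of Vldlr the annotation holds 5 genes, of which 2 were tested. Smarca2, an ATPase of chromatin remodelling 438.2 kb before Vldlr, had 71 and 68 counts in WT_CTCF and 53 and 40 in MUT_CTCF (log2 fold change -0.58, standard error 0.358, edgeR adjusted p = 0.468). D19Bwg1357e, 134.5 kb after Vldlr, had 3688 and 3713 against 3452 and 3498 (-0.10, edgeR adjusted p = 0.335). Both were lower in both MUT_CTCF libraries, as were 22.4% of all tested genes, and neither passed. Of the rest, Kcnv2 had 2 and 10 counts in WT_CTCF and 5 and 2 in MUT_CTCF, and Gm815 and SNORA48 had 0.

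Next to Lrp1, by contrast, stood genes with large differences. Nxph4 is a neurexophilin gene 3.60 kb downstream of the Lrp1 gene body on mm9, Lrp1 being on the minus strand. It had 14 and 39 counts in WT_CTCF and 100 and 92 in MUT_CTCF. It rose by 1.85 log2 units (standard error 0.384, edgeR adjusted p = 0.00177), with 1.29 without WT_CTCF replicate 1 and 2.76 without WT_CTCF replicate 2. Ndufa4l2, a mitochondrial protein gene 21.0 kb downstream of Lrp1, had 78 and 75 counts in WT_CTCF and 293 and 281 in MUT_CTCF. Its rise was 1.90 (standard error 0.20, edgeR adjusted p = 2.82e-10). Both differences are larger than that of Lrp1 itself.

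Between them lies Shmt2, the mitochondrial serine hydroxymethyltransferase, named after its values were seen. It had 12919 and 12595 counts in WT_CTCF and 13379 and 14002 in MUT_CTCF, with a log2 fold change of only 0.10 (not called, edgeR adjusted p = 0.0888, and 0.0424 to 0.595 over the alternatives). It shares 14 exon bases with Ndufa4l2 on the other strand. On the far side, Naca, 414.2 kb upstream of Lrp1, fell by 0.094 on the log2 scale (19704 and 19779 to 18679 and 18447 counts, edgeR adjusted p = 0.0443). The differences at this locus therefore varied from gene to gene. Without MUT_CTCF replicate 1 or 2 the calls of Nxph4, Ndufa4l2 and Naca were lost, with an adjusted p of up to 0.0837 for Ndufa4l2 and 0.408 for Nxph4. Nxph4 was also lost without WT_CTCF replicate 1, and Naca without either WT_CTCF library. The adjusted p of Ndufa4l2 and Nxph4 over all alternatives began at 2.96e-17 and 2.19e-05, and DESeq2 gave neither an adjusted p.

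Over all 8 members, 174 neighbours within 500 kb were tested, of which 3 rose (1.72%) and 3 fell (1.72%), beside 1.56% and 1.61% of all tested genes. Their median log2 fold change was 0.004, beside 0.0034 for all tested genes. The other calls were Tcirg1, a subunit of the proton pump, 209.5 kb from Lrp5 (922 and 936 to 1084 and 1212 counts, log2 fold change 0.30, edgeR adjusted p = 0.0332), Psmc3, a proteasome ATPase near Lrp4 (-0.11, edgeR adjusted p = 0.0325) and Jub 96.0 kb from Lrp10 (-0.16, edgeR adjusted p = 0.0118). Psmc3 shares 215 exon bases with Slc39a13 and was at -0.070 without WT_CTCF replicate 1. Without MUT_CTCF replicate 1 or 2, none of these 3 calls was kept. Tcirg1 was also lost without either WT_CTCF library, Psmc3 without WT_CTCF replicate 1 and Jub without WT_CTCF replicate 2. A share near the background was thus seen among the neighbours as a whole.

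**Figure D5:**
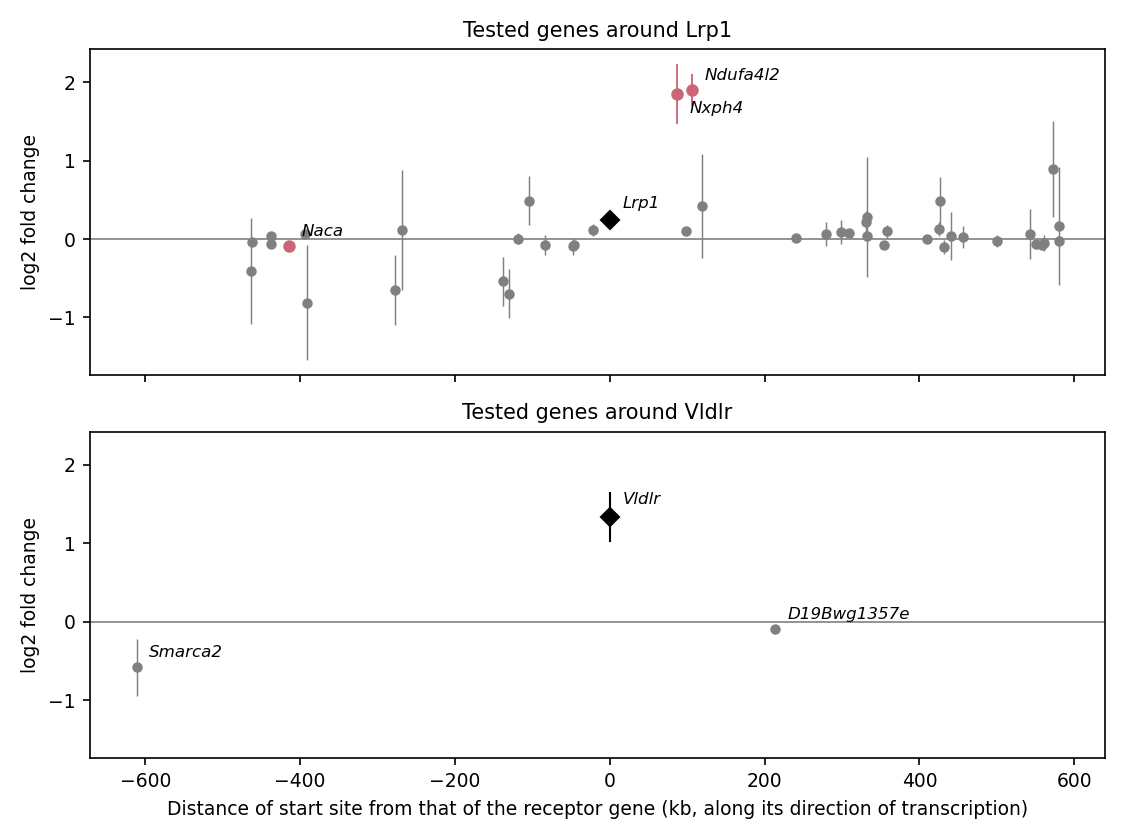
Log2 fold change (± 1 standard error) of tested genes within 500 kb of Lrp1 (top) and Vldlr (bottom) against the distance of their start sites from that of the receptor gene, in kb along its direction of transcription. Genes at an adjusted p under 0.05 are red, the receptor is the black diamond, and Nxph4 and Ndufa4l2 stand at 1.85 and 1.90 beside Lrp1 at 0.24. The bar of Vldlr is no test of its rise.

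Other receptors of the family were read from a list of 7 genes, of which 5 were tested. None passed in edgeR or DESeq2 (2 of the 5 without an adjusted p in DESeq2), with a median log2 fold change of 0.080. At an unadjusted p under 0.05, 1 was higher and 1 lower, beside 7.61% and 7.65% of all tested genes. Sorl1, a sorting receptor with repeats like those of the family, had 5889 and 5962 counts in WT_CTCF and 6644 and 6305 in MUT_CTCF (0.12, edgeR adjusted p = 0.0791, and 0.0464 to 0.467 over the alternatives). Its exons share 185 bases with Gm16214. Both MUT_CTCF libraries were above both WT_CTCF libraries. Lrp1b was at low counts, with 5 counts in each WT_CTCF library and 1 in each MUT_CTCF library, and was not tested.

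Receptors of this family need chaperones to leave the endoplasmic reticulum. Of 23 tested genes for folding, adaptors and cleavage of the receptors, 0 rose and 1 fell (1.56% and 1.61% of all tested genes), with a median log2 fold change of -0.033. The 1 was Lrpap1, the receptor-associated protein (RAP) that keeps ligands off new receptors. It had 7953 and 7991 counts in WT_CTCF and 6999 and 6884 in MUT_CTCF, without overlap, and fell, at -0.21 in log2 (standard error 0.037, edgeR adjusted p = 0.000168). Without MUT_CTCF replicate 1 or 2 it was not called, and its fold change stayed between -0.209 and -0.201 with each library left out. Its adjusted p over the alternatives ran from 4.3e-06 to 0.225. At an unadjusted p under 0.05, 2 of the 23 were higher and 2 lower (7.61% and 7.65% of all tested genes). DESeq2 called 0 higher and 1 lower and gave 7 of the 23 no adjusted p.

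The reelin pathway downstream of Vldlr and Lrp8 held no call among 21 tested genes in edgeR or DESeq2 (8 without an adjusted p in DESeq2). There were 0 higher and 1 lower (Crk, an adaptor) at an unadjusted p under 0.05, beside 7.61% and 7.65% of all tested genes. The median was -0.001. The ligand and the adaptor, named for their roles after their values were seen, were at low counts. Reln, which encodes reelin, had 32 and 37 counts in WT_CTCF and 49 and 54 in MUT_CTCF (0.57, standard error 0.421, edgeR adjusted p = 0.582). Dab1, the adaptor of both receptors, had 181 and 197 against 201 and 157 (-0.08, edgeR adjusted p = 0.898) and was 0.07 without MUT_CTCF replicate 2. Dcx, a microtubule protein of migrating neurons, had 0 reads in every library.

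Among lipoprotein ligands and uptake genes, 18 were tested, 3 rose and 0 fell (1.56% and 1.61% of all tested genes), the median log2 fold change being 0.091. At an unadjusted p under 0.05 there were 9 higher and 0 lower, beside 7.61% and 7.65% of all tested genes. Lpl, the lipase that releases fatty acids from the lipoproteins VLDLR binds, had 922 and 894 counts in WT_CTCF and 1129 and 1116 in MUT_CTCF (0.30, standard error 0.084, edgeR adjusted p = 0.0312). Insig1, a sterol-sensing retention protein, had 3443 and 3233 against 3731 and 3920 (0.19, edgeR adjusted p = 0.019). Srebf2, the transcription factor of sterol uptake, had 13201 and 13408 against 14082 and 14761 (0.11, edgeR adjusted p = 0.0344). In each of the 3 both MUT_CTCF libraries were above both WT_CTCF libraries, as in 22.3% of all tested genes. Being picked as called higher favours this.

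Apoe, a ligand of most members, was named after its values were seen and overlapped between the lines, with 4343 and 4077 counts in WT_CTCF and 4339 and 4918 in MUT_CTCF (0.13, edgeR adjusted p = 0.148). Apoc3 had 0 reads. DESeq2 called none of the 18 (8 without an adjusted p). Lpl and Srebf2 lost their call with any library left out, and Insig1 with any but WT_CTCF replicate 1. Srebf2 was at 0.065 without MUT_CTCF replicate 2. Over the alternatives the adjusted p reached 0.395 for Lpl, 0.482 for Insig1 and 0.503 for Srebf2.

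Protease and matrix ligands of LRP1 held 19 tested genes, of which 1 rose and 2 fell (1.56% and 1.61% of all tested genes), with a median of -0.013. A2m, the protease inhibitor alpha-2-macroglobulin, which LRP1 clears from the cell surface, had 1393 and 1337 counts in WT_CTCF and 2026 and 1982 in MUT_CTCF. It rose by 0.55 log2 units (standard error 0.067, edgeR adjusted p = 3.41e-08), so that LRP1 and this ligand were both higher in MUT_CTCF. Calr, the chaperone calreticulin, which also serves as an LRP1 ligand at the surface, fell from 46702 and 45581 to 43450 and 41942 counts (-0.12, edgeR adjusted p = 0.000851).

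Hsp90b1, the chaperone GRP94, fell from 6012 and 6110 to 5566 and 5408 counts (-0.15, edgeR adjusted p = 0.0255) and shares 632 exon bases with other annotated genes. Mmp13, a collagenase, had 0 reads. Without MUT_CTCF replicate 1 or 2, none of the calls of A2m, Calr and Hsp90b1 was kept. Calr was also lost without WT_CTCF replicate 1, and Hsp90b1 without either WT_CTCF library. The highest adjusted p over the alternatives was 0.139 for A2m, 0.293 for Calr and 0.373 for Hsp90b1.

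The partners of megalin (10 tested) and the agrin pathway (6 tested) held no call in edgeR or DESeq2. However, DESeq2 gave 7 of the 10 and 5 of the 6 no adjusted p. Each list had 0 higher and 1 lower at an unadjusted p under 0.05, beside 7.61% and 7.65% of all tested genes. The 1 of each was Folr1, a folate receptor taken up with megalin (2914 and 2948 against 2607 and 2690 counts, -0.15, edgeR adjusted p = 0.125), and Agrn, which encodes agrin (14970 and 14409 against 13988 and 14256 counts, -0.06, edgeR adjusted p = 0.323). Cubn and Amn, which form the cubilin complex and were named after their values were seen, had 11 to 32 and 125 to 155 counts over the 4 libraries, respectively, with overlap. Musk, the kinase partner of LRP4, had 0 reads.

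Around the WNT co-receptors, 48 genes were tested, 2 rose and 3 fell (1.56% and 1.61% of all tested genes), with a median of -0.007. At an unadjusted p under 0.05 there were 5 higher and 6 lower, beside 7.61% and 7.65% of all tested genes. DESeq2 called 1 higher and 1 lower and gave 29 of the 48 no adjusted p, Dkk1, Dkk3 and Notum among them. Fzd7, a WNT receptor that pairs with LRP5 and LRP6, rose from 1063 and 1060 to 1377 and 1365 counts (0.36, standard error 0.077, edgeR adjusted p = 0.00235). Dkk3, a Dickkopf family member, rose from 320 and 301 to 404 and 471 (0.49, edgeR adjusted p = 0.0285). Both were higher in both MUT_CTCF libraries, as were 22.3% of all tested genes.

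Dkk1, which blocks LRP5 and LRP6, fell from 220 and 252 to 155 and 133 counts (-0.72, standard error 0.187, edgeR adjusted p = 0.0183). Axin2, a scaffold for destruction of beta-catenin, fell from 4115 and 4439 to 3633 and 3756 (-0.22, edgeR adjusted p = 0.00397). Notum, which inactivates WNT ligands, fell from 1092 and 959 to 835 and 828 (-0.31, edgeR adjusted p = 0.0386). These 3 were lower in both MUT_CTCF libraries, as were 22.4% of all tested genes. Axin2 shares 209 exon bases with Gm11670 and Notum shares 918 with 2 other genes.

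Without MUT_CTCF replicate 1 or 2 none of these 5 was called. Dkk3 was also lost without either WT_CTCF library, Dkk1 and Axin2 without WT_CTCF replicate 2, and Notum without WT_CTCF replicate 1. Their highest adjusted p over the alternatives was 0.31 for Fzd7, 0.425 for Dkk1, 0.487 for Dkk3, 0.419 for Axin2 and 0.48 for Notum. Over all 8 lists, 148 of 166 genes were tested, 6 rose and 6 fell, beside 1.56% and 1.61% of all tested genes. Their median log2 fold change was -0.007, beside 0.0034 over all tested genes.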

How the data were processed

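RNA-seq counts of 2 WT_CTCF and 2 MUT_CTCF mESC libraries were used. The authors trimmed reads with Trim Galore 0.4.4, aligned them to mm9 with STAR, counted uniquely mapped reads per gene with HTSeq-count 0.9.1, and deposited these counts without normalization. The strand setting of the counting is not given in the sources used here. The submitters' notes also name edgeR, and a table of the authors' own comparison (fold changes and p-values) was not used here.

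Gene names and exon lengths came from the GENCODE annotation of mm9, which named 37205 of 37620 rows. Genes were filtered with filterByExpr (minimum count 10), scaled by TMM and tested with edgeR 4.0.16 in R 4.3.3 (glmQLFit and glmQLFTest on the line alone, two-sided), and p-values were adjusted by Benjamini-Hochberg over these 16264 genes, which held 99.954 to 99.958% of the counts per library. The standard error is the log2 fold change over the root of F. Counts were normalized to the average library, and a prior count of 2 was used for log2 CPM. The fit was tested on simulated data.

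The members and gene lists were chosen with earlier results of these data known. All 8 members were named, with every called gene of a list or else up to 2 with the smallest p, genes at 0 reads, all tested neighbours of Vldlr, called neighbours of the other members and the 5 genes nearest to Vldlr. An item of the lists is not reported here. Exceptions are stated beside their values, and the listed markers, Lrp1b and untested Vldlr neighbours were added after values were seen. Alternatives were DESeq2 1.42.0, other scalings and filters, a block for replicate number and leaving out every library once. Totals per library ran from 40524694 to 40977464 counts, and replicates differed by more than counting error (chi-square per degree of freedom 3.25 in WT_CTCF and 3.77 in MUT_CTCF).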

Additional observations from a re-analysis of the deposited data

How the results depend on the processing

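Leaving out 1 library leaves a line with 1 sample, which is then assumed to vary like the other line. Vldlr then ran from 0.911 to 1.934 on the log2 scale, Lrp1 from 0.172 to 0.299, Lrp6 from -0.066 to 0.062 and Lrp10 from -0.016 to 0.146, and the members other than Vldlr called higher numbered 0 to 1. Of the pathway genes, 0 to 3 were called higher and 0 to 3 lower, against 6 and 6 with all libraries. Without the filter on low counts, 0 other members were called higher (Lrp1 at 0.237), and 1 pathway gene was called higher and 0 lower. DESeq2 called 2 pathway genes higher and 4 lower, and left some genes of every pathway list without an adjusted p. Scaling by library size alone put Lrp6 at 0.009. The causes were not tested.

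Over all genes, 253 were called higher and 262 lower. DESeq2 called 117 higher and 177 lower, but gave 10014 of the 16264 genes no adjusted p. The fit without a filter called 26 higher and 3 lower, and scaling by library size alone 152 lower. Leaving out any 1 library gave fewer calls in both directions. At the criterion of the study, 154 were higher and 58 lower, which became 82 and 35 with at least 10 reads in every library, and 100 and 95 without MUT_CTCF replicate 1. Calls among the 174 neighbours (3 higher and 3 lower) were 0 higher and 3 lower in DESeq2, which gave 103 of them no adjusted p. They were 1 higher and 0 lower without the filter, and 1 was lower with scaling by library size alone.

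Libraries with the same replicate number showed no shared deviation over all tested genes (correlation -0.0192 over 16264 genes). With only 2 libraries per line, this cannot decide whether the numbers pair the samples. With a replicate block, 326 genes were called higher and 372 lower, the neighbours called numbered 5 and 4, all 12 pathway calls were kept, and Lrp1 remained the only other member called. The per-length levels with the longest transcript, 13.8 for Lrp1, 3.76 for Lrp2, 3.38 for Lrp4, 4.29 for Lrp6 and 1.00 for Lrp8, kept the order of the members. The counting intervals of Vldlr in the WT_CTCF libraries did not overlap, so their spread exceeded counting error.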
